A study of Mus musculus with 10 samples.

Results

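Interferon-stimulated genes are the genes that a cell switches on after an interferon binds its receptor, and 38 of them were followed here among the 53465 genes listed in each count file of this mouse lung series. The 38 were taken as a fixed list of symbols covering transcription factors, nucleic acid sensors, antiviral effectors and interferon-inducible GTPases, and each symbol matched 1 gene identifier. The series compares lung tissue of 5 control BALB/c mice with that of 5 BALB/c mice given IL-33, an alarmin cytokine of barrier epithelium, through the nose at 1 µg in 35 µL once a day for 5 days, with lungs taken 24 hours after the last dose. The controls are described as untreated, with no mention of a vehicle, so effects of instillation and of IL-33 cannot be told apart. No genetic alteration is named for either group, and age and sex are not given. RNA came from whole lung tissue, so fewer cells of a type and less RNA per cell cannot be told apart for any gene below.

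Type I interferons (the alpha and beta interferons) and type III (lambda) interferons activate the kinases JAK1 and TYK2, and STAT2 and IRF9 then act in the transcription factor complex ISGF3, which binds the interferon-stimulated response element (ISRE) of target genes such as the Ifit, Oas, Mx and Isg15 genes. Type II interferon (interferon-gamma) acts through JAK1, JAK2 and gamma-activated sites (GAS) of its target genes, and it is the main inducer of the guanylate-binding proteins (Gbp) and immunity-related GTPases (Irg). In the lung these genes are best known from virus infection, while IL-33 is known for type 2 immunity, with eosinophils and innate lymphoid cells.

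Libraries held 7805175 to 13767118 reads counted in genes. Levels are given as CPM, which are read counts scaled to a common library size with TMM factors, changes are log2 fold changes of IL-33 over control with the SE of 5 and 5 libraries, and a call is an adjusted p under 0.05 in the edgeR quasi-likelihood fit, with p-values adjusted by Benjamini-Hochberg over the 15695 genes tested. Of the tested genes 69.9% were called, so a call alone sets no gene apart. The labelled tissue showed its defining markers in every library, with Sftpc of alveolar type 2 cells at 9332 CPM or more and Scgb1a1 of club cells, Ager of alveolar type 1 cells and Pecam1 of endothelium also abundant. Over all genes, the fold change depended on transcript length. Of 10 equal bins of genes, the one with the shortest exons in sum (48 to 1527 bases) had a median of 0.72 and the one with the longest (from 9592 bases) -0.31. Values after removing each library's trend on length and GC content are called corrected values. They are given beside each member whose call or sign this changes, and beside some others. The correction moved the median of all tested genes from -0.007 to -0.0836.

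The interferon-stimulated genes did not rise together in IL-33 lungs. All 38 members passed the low-count filter and were tested. Of them 7 rose, 16 fell and 15 did not pass, against 35.1% of all tested genes higher and 34.8% lower. That is 60.5% of members called beside 69.9% of all genes. The median log2 fold change over the members was -0.14, and -0.0068 over all tested genes. At least 2-fold, 2 members rose (Mx1 and Bst2) and 3 fell (Ifit2, Gbp6 and Ifih1), where the shares over all tested genes were 14.5% and 8.79%. The 5 control and 5 IL-33 values did not overlap for 17 of the 38 members, and for 56.5% of all tested genes. After the length and GC correction 3 members were higher (Mx1, Zbp1 and Bst2) and 19 lower, with a median of -0.20 beside -0.0836 for all genes. Of all genes 68.3% were then called, 30.1% higher and 38.3% lower. Called in the same direction before and after were 17 of the 38 members, and 8910 of the 15695 tested genes. Members called in neither fit are not in that count.

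**Figure D1:**
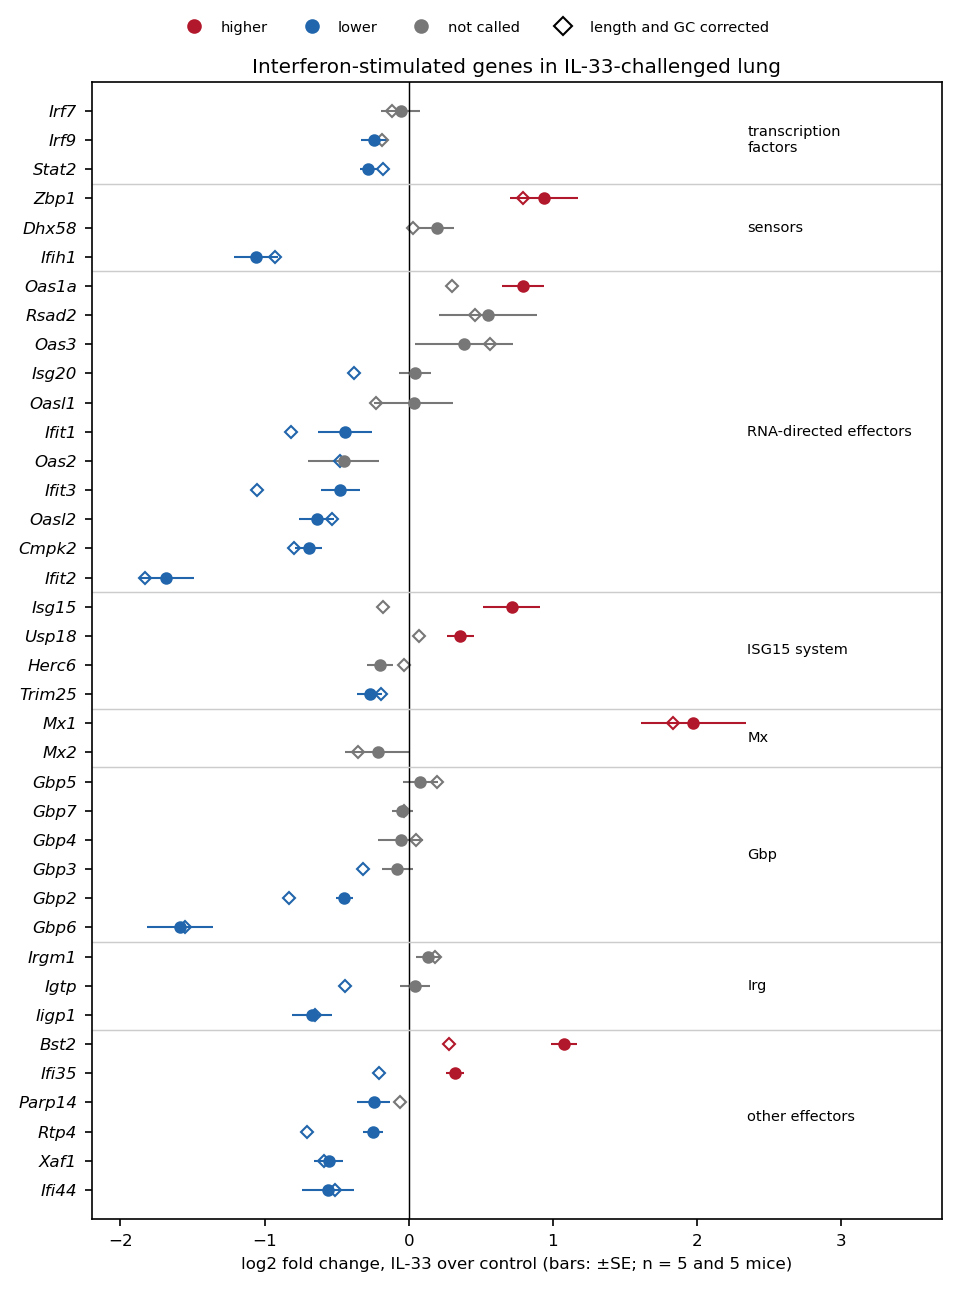
Log2 fold change of each of the 38 interferon-stimulated genes (x axis, IL-33 over control), grouped by role on the y axis. Filled points are the fitted change with bars of 1 SE over 5 and 5 mice, open diamonds are the values after the length and GC correction, and colour gives the call of each (red higher, blue lower, grey not called). Mx1 stands farthest to the right and Ifit2 farthest to the left, and Isg15 and Ifi35 move across 0 with the correction.

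Promoter letters of the members are shown first, because the same element is found in members that rose, fell and did not pass. Of the 38 members, 27 had a window of 250 bases before to 50 after the annotated start in RefSeq (GRCm38.p6). No window was used for Dhx58, Gbp4, Gbp6, Iigp1, Mx1, Mx2, Oas2, Parp14, Rtp4, Usp18 and Zbp1. The ISRE core was searched on both strands as GAAA, any 2 bases and GAAA (TTTC, any 2 bases and TTTC on the other strand), and matches may overlap each other. It was found for 15 of the 27 members (55.6%), and for 3.99% of the 27025 genes with such windows. By call it was found for 3 of the 4 members with a window that rose, 5 of the 12 that fell and 7 of the 11 that did not pass. With the calls after the length and GC correction these counts were 1 of 1 higher, 7 of 15 lower and 7 of 11 not called. The GAS core, searched as TTC, any 3 bases and GAA, which reads the same on both strands, was found for 8 of the 27 members (29.6%) and 9.55% of genes. The sequences are those of the C57BL/6J reference and not of the BALB/c mice studied. A match is a description of letters and not a bound site. Each line gives 60 bases, 5′ to 3′ in the direction of the gene, with ISRE core matches in capitals, first for 3 members that rose, then for 5 that fell and then for 2 that did not pass.
Bst2 (chr8:71537565-71537624, minus strand): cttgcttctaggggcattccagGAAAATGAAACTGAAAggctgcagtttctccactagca
Isg15 (chr4:156200856-156200915, minus strand): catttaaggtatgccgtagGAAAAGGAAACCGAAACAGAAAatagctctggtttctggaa
Oas1a (chr5:120907508-120907567, minus strand): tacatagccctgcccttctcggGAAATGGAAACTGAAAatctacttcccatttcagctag
Ifih1 (chr2:62646206-62646265, minus strand): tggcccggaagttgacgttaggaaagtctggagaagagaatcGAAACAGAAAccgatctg
Ifit1 (chr19:34640779-34640838, plus strand): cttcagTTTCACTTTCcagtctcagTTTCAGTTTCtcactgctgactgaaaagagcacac
Ifit3 (chr19:34583382-34583441, plus strand): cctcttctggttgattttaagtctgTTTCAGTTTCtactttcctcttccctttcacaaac
Gbp2 (chr3:142620579-142620638, plus strand): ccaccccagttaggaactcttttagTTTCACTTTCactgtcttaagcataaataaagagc
Stat2 (chr10:128270251-128270310, plus strand): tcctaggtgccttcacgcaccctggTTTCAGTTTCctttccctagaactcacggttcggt
Gbp7 (chr3:142530258-142530317, plus strand): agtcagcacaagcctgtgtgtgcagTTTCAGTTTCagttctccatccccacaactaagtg
Igtp (chr11:58199497-58199556, plus strand): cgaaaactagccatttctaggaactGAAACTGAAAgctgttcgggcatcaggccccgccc

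The commonest match among the members was GAAACTGAAA, on either strand. It was picked from these same windows, so its share among the members is inflated by that choice. It occurred in the windows of 8 members (29.6%) and of 0.263% of genes. Of these 8, Bst2 and Oas1a rose, Ifit1, Ifit3 and Stat2 fell, and Gbp3, Gbp7 and Igtp did not pass. After the correction 1 of the 8 was called higher (Bst2) and 5 lower (Gbp3 and Igtp besides Ifit1, Ifit3 and Stat2), while Oas1a and Gbp7 were not called. Isg15 carries 3 overlapping matches, the most among the members. The Ifih1 match lies after the annotated start, 33 bases in, whereas the others shown lie before it. No match in a window says only that these letters are absent there, as for Ifit2, the member with the largest fall, which has a GAS core match but no ISRE core in its windows.

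Among the transcription factors, Stat2 and Irf9, which encode subunits of ISGF3, were slightly lower in IL-33 lungs, and Irf7, the interferon-inducible factor that amplifies type I interferon production, did not pass. Stat2 (ENSMUSG00000040033, chromosome 10, 128270559 to 128292849, plus strand) stood at 72.1, 81.4, 82.6, 74.995 and 73.4 CPM in control mice 1 to 5 and at 57.6, 61.5, 62.9, 66.2 and 67.9 CPM in IL-33 mice 1 to 5. Every IL-33 lung lay below every control lung, by a small margin, and the log2 fold change was -0.28 ± 0.06 (adjusted p = 0.00199). Irf9 had 56.0, 52.4, 56.0, 58.3 and 49.0 CPM in controls and 41.1, 53.2, 39.7, 47.7 and 48.4 CPM in IL-33 lungs. The groups overlapped, and the change was -0.24 ± 0.09 (adjusted p = 0.0251). It was not called after the correction (-0.19, adjusted p = 0.068), nor without control 4, at -0.22 (adjusted p = 0.0583), IL-33 mouse 1, at -0.20 (adjusted p = 0.0682), or IL-33 mouse 3, at -0.19 (adjusted p = 0.069). Irf7 had 29.9, 19.9, 21.5, 24.1 and 18.03 CPM in controls and 21.2, 22.4, 19.1, 23.0 and 23.6 CPM in IL-33 lungs, where control 1 was the highest of all 10 and the other lungs covered the same range (log2 -0.06 ± 0.14, adjusted p = 0.705).

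The 3 cytosolic nucleic acid sensors went different ways. Ifih1 (ENSMUSG00000026896, chromosome 2, 62595798 to 62646255, minus strand), which encodes MDA5, the sensor of long double-stranded RNA, stood at 50.4, 47.6, 41.8, 50.1 and 51.1 CPM in controls and 22.9, 16.7, 20.2, 25.2 and 29.8 CPM in IL-33 lungs. All 5 IL-33 lungs were lower than the lowest control, a 2.08-fold fall (log2 -1.06 ± 0.15, adjusted p = 8.31e-06), and the corrected value was -0.93. Zbp1 (ENSMUSG00000027514, chromosome 2, 173206612 to 173218923, minus strand), a sensor of Z-form nucleic acid that can trigger necroptosis, went the other way, from 10.03, 6.89, 9.79, 6.74 and 4.65 CPM to 13.2, 18.7, 11.2, 14.2 and 15.8 CPM. Again the groups did not overlap (log2 0.94 ± 0.24, adjusted p = 0.000931; corrected 0.79, adjusted p = 0.00231). Dhx58, encoding LGP2, a regulator of MDA5 and RIG-I, ranged over 7.66 to 11.9 CPM in controls and 8.98 to 11.7 CPM in IL-33 lungs and did not pass at 0.19. Without control 1, the highest control, it was called at 0.30 (adjusted p = 0.0433), whereas its corrected value over all libraries was 0.03 (adjusted p = 0.831).

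The Ifit proteins bind foreign RNA ends and block translation, and all 3 members of that family fell. Ifit2 (ENSMUSG00000045932, chromosome 19, 34550694 to 34576419, plus strand) was very even in control lungs, at 50.4, 47.8, 50.6, 50.6 and 49.5 CPM, and stood at 16.4, 10.1, 11.7, 18.8 and 19.5 CPM in IL-33 lungs. Even the highest IL-33 lung, mouse 5, lay far below the lowest control, and the 3.21-fold fall was the largest among the members (log2 -1.68 ± 0.19, adjusted p = 5.48e-07; corrected -1.83). Ifit3 fell from 32.9 ± 3.47 to 23.5 ± 4.22 CPM (mean ± SD, n = 5; log2 -0.47 ± 0.14, adjusted p = 0.00331), and the corrected value was larger in size, -1.05. Of Ifit3's 75-base windows 41.1% also occur in another gene, chiefly its near copy Ifit3b, so how reads were split between them is uncertain. Ifit1 ranged over 16.6 to 27.5 CPM in controls and 11.3 to 18.5 CPM in IL-33 lungs, with overlap, and its -0.44 ± 0.19 passed at an adjusted p of 0.0266. That call was lost without control 2, at -0.34 (adjusted p = 0.0668), control 4, at -0.42 (adjusted p = 0.0525), IL-33 mouse 1, at -0.34 (adjusted p = 0.0655), or IL-33 mouse 3, at -0.38 (adjusted p = 0.0663), while the corrected value passed at -0.81 (adjusted p = 0.0009).

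The Oas enzymes make the 2′-5′ oligoadenylates that activate RNase L on meeting double-stranded RNA, and they did not move as a block. Oas1a, an active synthetase, rose from 6.64, 5.25, 5.18, 4.73 and 4.27 CPM to 7.70, 10.5, 7.52, 9.19 and 10.4 CPM with no overlap (log2 0.79 ± 0.14, adjusted p = 0.000435). Its corrected value of 0.30 did not pass (adjusted p = 0.0835), and 47.6% of its windows also occur in Oas1g, so its level is uncertain. Oasl2, a relative of these enzymes, fell from 55.3, 55.4, 44.9, 61.4 and 46.5 CPM to 31.4, 33.1, 28.0, 37.7 and 38.6 CPM, again with every IL-33 lung below every control (log2 -0.64 ± 0.12, adjusted p = 0.000159; corrected -0.53). Oas2 and Oas3 had log2 values of -0.45 and 0.38 and Oasl1, which in mouse restrains translation of IRF7, 0.03, and none of these 3 passed. Their control ranges were 8.54 to 15.8 CPM for Oas2, 2.36 to 8.69 CPM for Oas3 and 2.66 to 6.15 CPM for Oasl1, wider than the shift between groups. The choice of library decided part of this: Oas3 was called at 0.71 (adjusted p = 0.02) without control 1, and Oas2 at -0.55 (adjusted p = 0.0368) without control 5, -0.55 (adjusted p = 0.0369) without IL-33 mouse 2 and -0.48 (adjusted p = 0.0473) after the correction. Oasl1 had the opposite sign after the correction (-0.22), when no genes were filtered out, and when control 2, 4 or 5 or IL-33 mouse 2 or 4 was left out.

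Rsad2 and Cmpk2 are neighbours on chromosome 12, and their products, viperin and a mitochondrial nucleotide kinase, act in turn on nucleotides that halt viral RNA synthesis. They did not share a direction. Cmpk2 fell from 21.9, 18.8, 19.9, 24.4 and 19.7 CPM to 12.1, 12.4, 11.4, 14.8 and 13.8 CPM without overlap (log2 -0.69 ± 0.09, adjusted p = 4.81e-05; corrected -0.80). Rsad2 had 15.4, 7.44, 12.8, 8.05 and 5.69 CPM in controls and 16.0, 10.2, 14.5, 9.58 and 22.2 CPM in IL-33 lungs, a wide spread with overlap, and its 0.55 ± 0.34 did not pass (adjusted p = 0.101). Without control 1, its highest control, it was called at 0.77 (adjusted p = 0.0246). Isg20, an RNA exonuclease also abundant in B-lineage cells, had 22.1 ± 3.13 CPM in controls and 22.6 ± 2.08 CPM in IL-33 lungs and did not pass at 0.04, whereas the corrected value was -0.38 and passed (adjusted p = 0.00502).

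Isg15 encodes a ubiquitin-like protein that is joined to other proteins, and it is a standard readout of interferon action. Isg15 (ENSMUSG00000035692, chromosome 4, 156199424 to 156200818, minus strand) had 7.98, 8.20, 5.40, 7.26 and 4.74 CPM in controls and 11.4, 13.8, 8.30, 10.7 and 11.1 CPM in IL-33 lungs. The lowest IL-33 lung, mouse 3, lay just above the highest control, and the fitted rise was 0.71 ± 0.19 (adjusted p = 0.00244), but after the length and GC correction the value was -0.18 and not called (adjusted p = 0.347). The exonic length of Isg15 is 756 bases, the shortest among the members, and falls in the bin of genes whose median was 0.72. Usp18, the protease that removes ISG15 and also dampens type I interferon receptor signalling, rose from a range of 10.1 to 14.4 CPM to one of 15.6 to 17.1 CPM (log2 0.36 ± 0.10, adjusted p = 0.00755), and was not called after the correction (0.07, adjusted p = 0.545). Herc6, the main ISG15 ligase of mouse, did not pass at -0.20 (adjusted p = 0.0758) with 23.5 ± 2.04 CPM in controls and 20.5 ± 2.37 CPM in IL-33 lungs. It was called without control 5, at -0.24 (adjusted p = 0.0471), and without IL-33 mouse 3, at -0.25 (adjusted p = 0.03). The corrected value of Herc6 over all libraries was -0.03 and not called (adjusted p = 0.742). Trim25, the ubiquitin ligase that acts in RIG-I signalling, fell by a small amount, from 121 ± 13.6 to 100.1 ± 7.45 CPM (log2 -0.27 ± 0.08, adjusted p = 0.0101; corrected -0.20).

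Mx1 showed the largest rise among the members. The Mx proteins are dynamin-like GTPases that block influenza and other viruses, although BALB/c, like most laboratory strains, carries a deletion in Mx1 that removes its antiviral function. Mx1 (ENSMUSG00000000386, chromosome 16, 97447035 to 97462907, minus strand) stood at 4.59, 4.38, 1.58, 2.54 and 2.37 CPM in controls and 6.61, 10.2, 13.2, 17.0 and 14.4 CPM in IL-33 lungs. Every IL-33 lung was above every control, with IL-33 mouse 1 nearest to them, and the change was 3.93-fold (log2 1.97 ± 0.37, adjusted p = 5.45e-05; corrected 1.84, adjusted p = 8.03e-05). Its neighbour Mx2, which the annotation marks as a polymorphic pseudogene, did not pass. Mx2 had 6.08, 6.78, 4.62, 5.34 and 4.08 CPM in controls and 2.86, 5.97, 4.02, 4.67 and 5.57 CPM in IL-33 lungs, with full overlap (log2 -0.22 ± 0.23, adjusted p = 0.367). Of Mx1's 75-base windows 1.71% occur in Mx2, so few reads could be exchanged between them.

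**Figure D2:**
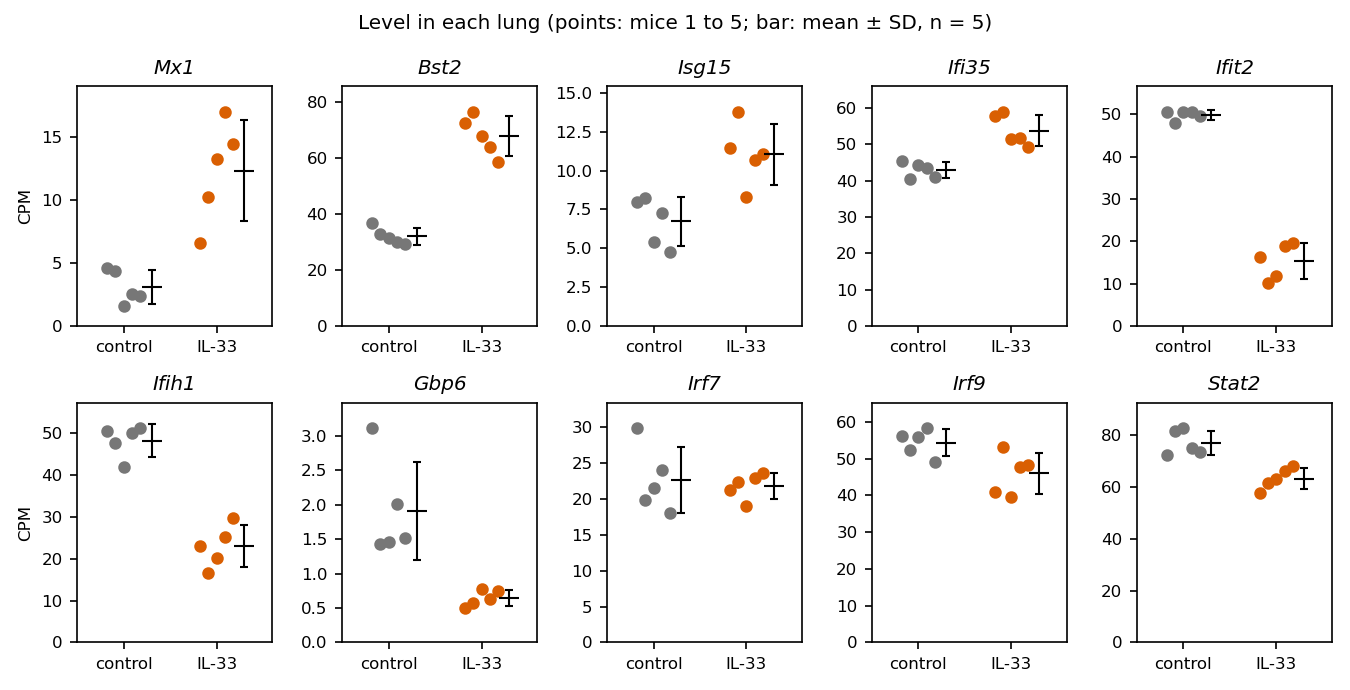
Level of 10 members in each lung in CPM (y axis, from 0), with grey points for control mice 1 to 5, orange points for IL-33 mice 1 to 5 and a bar at mean ± SD. Mx1, Bst2, Isg15 and Ifi35 are higher in every IL-33 lung (the direction of Isg15 and Ifi35 turns with the length and GC correction), Ifit2, Ifih1, Gbp6 and Stat2 lower in every IL-33 lung, and Irf7 and Irf9 overlap.

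The guanylate-binding proteins attack the vacuoles of intracellular microbes and are typical targets of interferon-gamma. Of the 6 members, Gbp2 and Gbp6 fell and 4 did not pass. Gbp6 (ENSMUSG00000104713, chromosome 5, 105270702 to 105293698, minus strand) had the lowest control level per kilobase of all 38, with 3.11, 1.42, 1.46, 2.01 and 1.52 CPM in controls and 0.493, 0.574, 0.778, 0.623 and 0.743 CPM in IL-33 lungs. The groups did not overlap and the fall was 3.003-fold (log2 -1.59 ± 0.23, adjusted p = 0.0003), but 67.3% of its windows occur in other genes, Gbp10 among them, so its level is uncertain. Gbp2 fell from 62.5, 53.6, 65.2, 61.4 and 63.0 CPM to 44.8, 43.2, 41.8, 46.3 and 47.9 CPM (log2 -0.45 ± 0.06, adjusted p = 7.3e-05; corrected -0.83), with each IL-33 lung below each control. Gbp4 and Gbp7 had 138 ± 27.3 and 132 ± 16.5 CPM for Gbp4 and 76.3 ± 5.78 and 74.0 ± 5.90 CPM for Gbp7, in control and IL-33 lungs in turn (log2 -0.06 and -0.05). Gbp3 and Gbp5 had log2 values of -0.08 and 0.08. None of these 4 passed as fitted, and Gbp3 was called lower after the correction (-0.32, adjusted p = 0.0117). Gbp4 had the opposite sign after the correction, at 0.05, and was not called either time.

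The immunity-related GTPases, which in mouse guard against vacuolar parasites and bacteria, were likewise mixed. Iigp1, encoding Irga6, fell from 45.4, 29.8, 40.4, 43.1 and 32.7 CPM to 25.8, 20.7, 22.8, 22.9 and 27.7 CPM without overlap (log2 -0.67 ± 0.14, adjusted p = 0.000286; corrected -0.65). The regulatory members Irgm1 and Igtp did not pass. Irgm1 ranged over 34.8 to 47.5 CPM in controls and 42.4 to 50.5 CPM in IL-33 lungs (log2 0.14). Igtp ranged over 21.4 to 25.8 and 20.8 to 28.1 CPM (log2 0.04), and was called lower after the correction, at -0.45 (adjusted p = 0.00102). Of Igtp's exonic bases 8.01% lie in exons of Irgm2 on the same strand, so reads there cannot be given to either gene.

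Bst2 was the other member with a rise of at least 2-fold. It encodes tetherin, which holds budding virus on the cell surface, and in mice it is displayed by plasmacytoid dendritic cells and plasma cells even without interferon. Bst2 (ENSMUSG00000046718, chromosome 8, 71534255 to 71537456, minus strand) had 36.9, 32.9, 31.3, 29.9 and 29.3 CPM in controls and 72.3, 76.5, 67.8, 63.8 and 58.4 CPM in IL-33 lungs. The ranges lay far apart, and the change was 2.11-fold (log2 1.08 ± 0.09, adjusted p = 3.28e-07). At 903 exonic bases it is short, and its corrected value was much smaller, 0.28 (adjusted p = 0.00136). Per kilobase of exon Bst2 was also the most abundant member, with 35.5 ± 3.35 RPKM (CPM per kilobase of exon) in controls and 75.1 ± 7.84 RPKM in IL-33 lungs. Markers of plasma cells also differed between the groups. Of 6, 4 rose (3 after the correction), 1 fell (Sdc1, which lung epithelium also expresses) and 1 was not tested. Jchain, the joining chain of secreted antibody, went from a range of 6.39 to 21.8 CPM to one of 92.2 to 501 CPM. IL-33 mouse 2 had the highest level of both genes in its group, at 501 CPM of Jchain and 76.5 CPM of Bst2. IL-33 mouse 1 had the lowest Jchain of its group, at 92.2 CPM, beside 72.3 CPM of Bst2. Of 6 plasmacytoid dendritic cell markers 4 rose and 2 did not pass, with the most selective, Siglech, at 3.50 to 9.40 CPM in controls and 3.51 to 6.43 CPM in IL-33 lungs and not called. Their part in the rise of Bst2 was not tested.

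Of the other 5 effectors, Ifi35 rose and the remaining 4 fell. Ifi35, a partner of the signalling regulator NMI and second to Bst2 in level per kilobase at 24.9 ± 1.25 RPKM in controls, had 45.5, 40.5, 44.4, 43.5 and 41.0 CPM in controls and 57.7, 58.9, 51.4, 51.6 and 49.1 CPM in IL-33 lungs. The ranges did not overlap (log2 0.32 ± 0.06, adjusted p = 0.00122), yet the corrected value was called in the opposite direction, -0.20 (adjusted p = 0.00966), so its direction depends on the correction. Xaf1, a pro-apoptotic partner of XIAP, fell from a range of 29.1 to 34.6 CPM to one of 17.7 to 25.1 CPM and Ifi44 from a range of 11.8 to 20.5 CPM to one of 7.78 to 11.7 CPM, with log2 values of -0.56 and -0.56 and no overlap in either. Rtp4, a receptor-transporting chaperone, fell by a small amount, from a range of 18.6 to 22.8 CPM to one of 16.2 to 19.3 CPM (log2 -0.25, adjusted p = 0.0195; corrected -0.71), and missed the threshold without IL-33 mouse 3, at -0.21 (adjusted p = 0.0538). Parp14, an ADP-ribosyltransferase also known as a cofactor of STAT6 in IL-4 responses, had 82.2, 93.2, 87.4, 87.8 and 86.9 CPM in controls and 67.3, 62.5, 64.5, 80.7 and 93.3 CPM in IL-33 lungs. Its -0.24 ± 0.11 passed narrowly (adjusted p = 0.0472) and was lost after the correction (-0.06), under both plain library-size scalings, and without control 2, 3, 4 or 5 or IL-33 mouse 1, 2 or 3, with values of -0.26 to -0.19 and adjusted p up to 0.119.

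**Figure D3:**
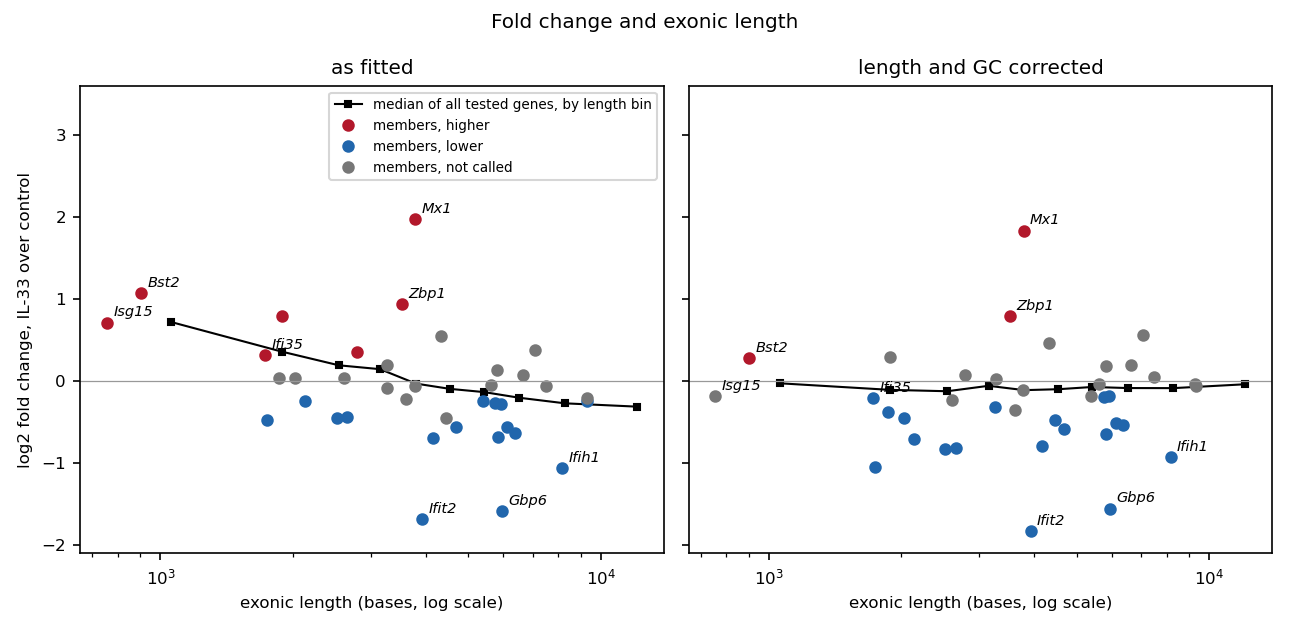
Log2 fold change (y axis) against exonic length in bases (x axis, log scale) for the 38 members, as fitted on the left and after the length and GC correction on the right, with points coloured by call. The black line joins the medians of all tested genes in 10 length bins, each drawn at the median length of its bin; as fitted it falls from 0.72 to -0.31, and Isg15 and Ifi35 lie close to it while Mx1, Zbp1, Ifit2, Gbp6 and Ifih1 lie away from it in both panels.

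The interferon genes themselves were at or near the detection limit. Ifnb1, Ifna1, Ifna2, Ifna4, Ifna5, Ifnk and Ifnl3 had 0 reads in all 10 libraries. For a count of 0, about 3 reads were taken as an approximate upper limit, which is not an absolute one. In 1 library 3 reads stand for 0.218 to 0.384 CPM. Ifnl2 had 2 reads and Ifne 1 read over the 5 IL-33 libraries and none in controls. Ifng, the type II interferon, had 12 reads over the 5 control libraries and 9 over the 5 IL-33 libraries, and at 0.0875 to 0.328 and 0 to 0.345 CPM it was too low to be tested. A difference in these 10 interferon transcripts was therefore not detectable at this depth 24 hours after the last dose, and such limits cover counting error only.

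The interferon receptor chains did not move together: of 6, 3 rose, 2 fell and 1 did not pass as fitted (2 higher and 3 lower after the correction). Ifngr2, the signalling chain of the interferon-gamma receptor, rose from 57.4, 48.6, 50.6, 48.1 and 48.8 CPM to 114, 126, 117, 117 and 109 CPM with no overlap (log2 1.20 ± 0.06, adjusted p = 1.29e-08; corrected 1.08). Its partner Ifngr1, the ligand-binding chain, did not pass at -0.20 (adjusted p = 0.0644), with 180.5 to 219.7 CPM in controls and 144 to 200.03 CPM in IL-33 lungs. It was called lower after the correction (-0.50), with the replicate number as a block (-0.20, adjusted p = 0.0182), without control 2, at -0.26 (adjusted p = 0.0239), and without IL-33 mouse 4, at -0.24 (adjusted p = 0.038). Ifnlr1, the epithelial receptor chain for lambda interferons, fell from 18.9, 20.7, 23.5, 23.7 and 24.5 CPM to 7.50, 6.55, 9.21, 12.8 and 11.3 CPM (log2 -1.21 ± 0.19, adjusted p = 2e-05; corrected -1.26). For the type I receptor, Ifnar1 had -0.27 (adjusted p = 0.00905) and Ifnar2 0.24 (adjusted p = 0.0164). The Ifnar2 call was lost after the correction (0.06), on fitting all genes unfiltered (0.21), without control 2, at 0.19 (adjusted p = 0.0581), and without control 5, at 0.20 (adjusted p = 0.0634).

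Of 8 kinases and factors of interferon signalling, 2 rose, 2 fell and 4 did not pass as fitted. After the correction 3 were higher and 1 lower. Irf5, a factor of macrophages and B cells that acts downstream of Toll-like receptors, rose from 27.5, 16.6, 20.3, 15.0 and 12.2 CPM to 60.01, 79.0, 55.5, 54.7 and 57.4 CPM (log2 1.73 ± 0.22, adjusted p = 2.87e-06; corrected 1.53). Irf8, a myeloid and B cell factor, rose by 0.25, and Irf1, an early interferon-gamma target, fell by 0.28 (adjusted p = 0.0223). The Irf1 call was lost without control 5, at -0.24 (adjusted p = 0.0553), and without IL-33 mouse 1, at -0.23 (adjusted p = 0.0603). Among 6 negative regulators, Usp18 included, 4 rose and 2 did not pass as fitted (3 higher and 0 lower after the correction). Socs1, the inhibitor of JAK kinases that cytokines including interferons and IL-4 induce, showed the largest change of the pathway genes, from 2.61, 3.83, 2.59, 2.89 and 1.80 CPM to 21.0, 21.1, 19.7, 16.3 and 12.7 CPM (log2 2.72 ± 0.22, adjusted p = 1.04e-07; corrected 2.59).

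Nucleic acid sensing genes upstream of interferon rose in 5 and fell in 5 of 12 cases (4 and 4 after the correction). Both core genes of cytosolic DNA sensing rose, in contrast to the RNA sensor Ifih1. Tmem173, encoding STING, went from 17.9, 17.8, 18.4, 16.1 and 15.9 CPM to 74.0, 72.8, 58.4, 60.3 and 57.6 CPM (log2 1.91 ± 0.09, adjusted p = 5.18e-09; corrected 1.61). Mb21d1, now named Cgas, encodes the DNA sensor that makes STING's ligand, and it went from 3.96, 3.17, 4.503, 4.38 and 3.51 CPM to 7.50, 9.53, 9.47, 7.48 and 7.06 CPM (log2 1.06 ± 0.13, adjusted p = 3.01e-05; corrected 0.96). For both genes every IL-33 lung was above every control. These pathway lists were not selected by how their genes moved in these counts, but earlier results of the series were known when they were written.

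Of 34 further interferon-induced genes outside the 38, 13 rose, 12 fell and 9 did not pass, with a median of 0.16. After the correction 9 were higher and 16 lower, with a median of -0.12. The largest rises were in Aim2, the inflammasome sensor of cytosolic DNA, from 9.01 ± 3.25 to 31.5 ± 2.47 CPM (log2 1.78 ± 0.23), and Epsti1, from 6.59 ± 1.54 to 19.6 ± 2.82 CPM (log2 1.56 ± 0.17). The largest falls were in Ifit3b, from 21.9 ± 3.62 to 9.005 ± 1.94 CPM (log2 -1.27 ± 0.18), Gbp9, from 95.3 ± 13.2 to 43.7 ± 9.86 CPM (log2 -1.12 ± 0.17), and Irgm2, from 39.4 ± 5.26 to 18.9 ± 3.75 CPM (log2 -1.05 ± 0.15). Each of these 5 had no overlap between groups and an adjusted p of 1.24e-05 or less, and each kept its call in the corrected fit. Ifit3b fell like Ifit2, Gbp9 fell while its overlapping neighbour Gbp4 did not pass, and Irgm2 fell while its overlapping neighbour Igtp did not pass as fitted. After the correction Igtp was called lower too, at -0.45 (adjusted p = 0.00102), beside -1.21 for Irgm2. Gbp9, Gbp8 and Gbp4 share exonic bases on 1 strand (1.16% of those of Gbp9). Of the chemokines that interferon-gamma induces, Cxcl10 rose from 1.34, 1.09, 0.563, 0.613 and 0.664 CPM to 3.45, 3.45, 1.43, 2.80 and 2.75 CPM (log2 1.66 ± 0.32, adjusted p = 0.000253; corrected 1.23). Cxcl9 had 0.0875 to 1.06 CPM in controls and 0.372 to 1.26 CPM in IL-33 lungs without passing, and Cxcl11 was too low to be tested.

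**Figure D4:**
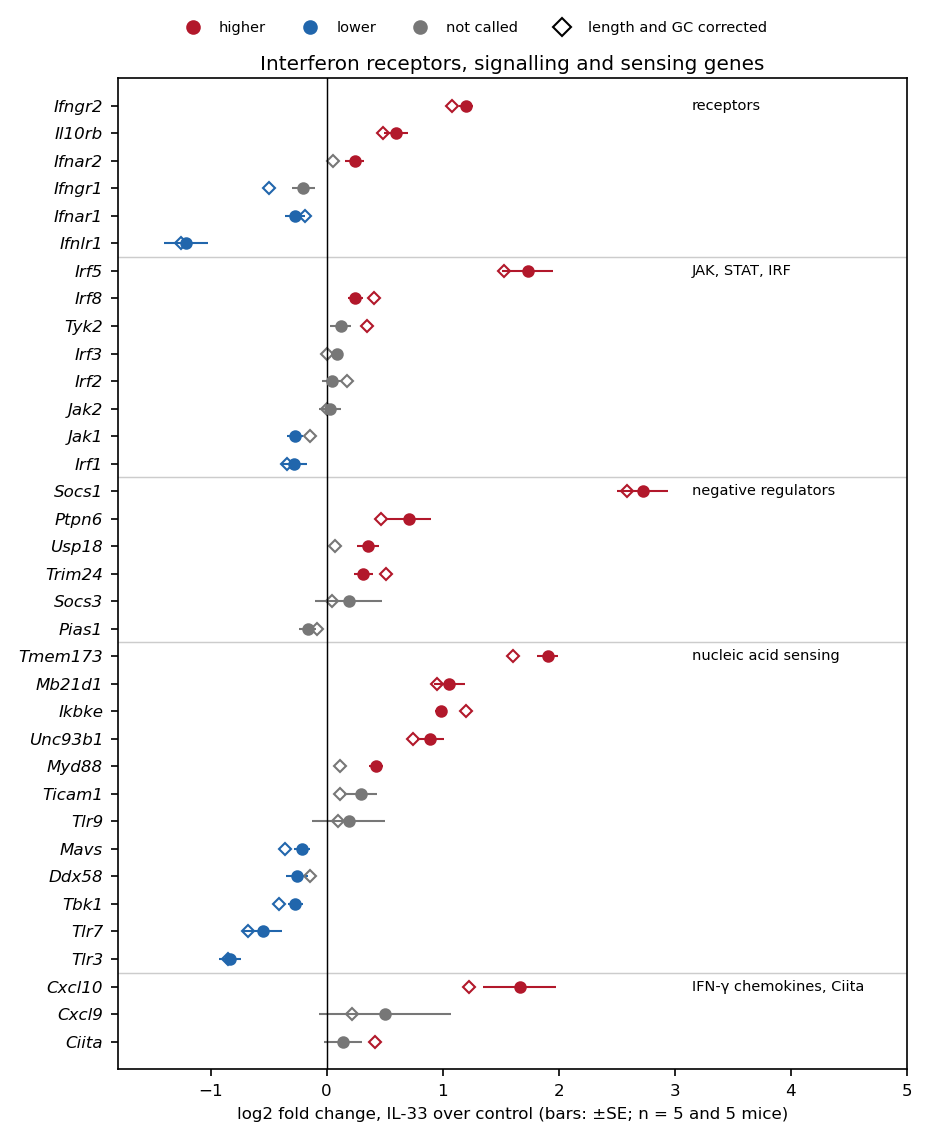
Log2 fold change (x axis, IL-33 over control) of the tested receptor, signalling, inhibitor, sensing and chemokine genes of the interferon pathway (y axis). Filled points are fitted changes with bars of 1 SE over 5 and 5 mice and open diamonds the corrected values, coloured red for higher, blue for lower and grey for not called. Socs1, Tmem173, Irf5, Cxcl10 and Ifngr2 lie farthest to the right and Ifnlr1 farthest to the left.

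Per kilobase of exon, the levels of the members in control lungs spanned from 0.32 ± 0.12 RPKM for Gbp6 to 35.5 ± 3.35 RPKM for Bst2. After Bst2 came Ifi35, at 24.9 ± 1.25 RPKM, and Gbp2, at 24.3 ± 1.76 RPKM, whose levels differed by less than their spread. Trim25, at 21.0 ± 2.36 RPKM, Ifit3, at 18.8 ± 1.99 RPKM, and Gbp4, at 18.3 ± 3.64 RPKM, followed, and Ifit3 and Gbp4 differed by less than the SD of either. Oas3, at 0.697 ± 0.338 RPKM, and Mx1, at 0.817 ± 0.35 RPKM, stood just above Gbp6 and did not differ beyond their spread. Mx1 in IL-33 lungs reached 3.25 ± 1.06 RPKM, still under the control level of most members, among them Cmpk2 at 5.03 ± 0.537 RPKM. Exonic length here is that of all annotated exons of a gene together, which understates the level of genes with many isoforms.

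Mice of 1 group also differed from each other in these genes. Among controls, mouse 1 had the highest level for 16 of the 38 members, and its median stood 0.22 above the mean of the other 4 on the log2 scale. Control 5 was lowest for 17 members, with a median of -0.18. Among IL-33 mice, mouse 5 was highest for 17 members (median 0.17) and mouse 3 lowest for 14 (median -0.10). Control 1 and IL-33 mouse 5 were also the deepest libraries of their groups, at 13767118 and 13178798 counted reads. IL-33 mouse 3 was the shallowest of all, at 7805175, while control 5, at 10434969, was neither. The same counts were not made over all tested genes, so they do not set the members apart, and the part of depth was not tested. Against the control mean, the median over the members was below 0 in each of the 5 IL-33 lungs, from -0.26 in mouse 3 to -0.03 in mouse 2, and from -0.14 to 0.18 in controls. Control 1 also held the highest summed level of 5 B cell markers among controls, 293 CPM against as little as 41.0 CPM in control 2, and the part of this in its interferon-stimulated genes was not tested.

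**Figure D5:**
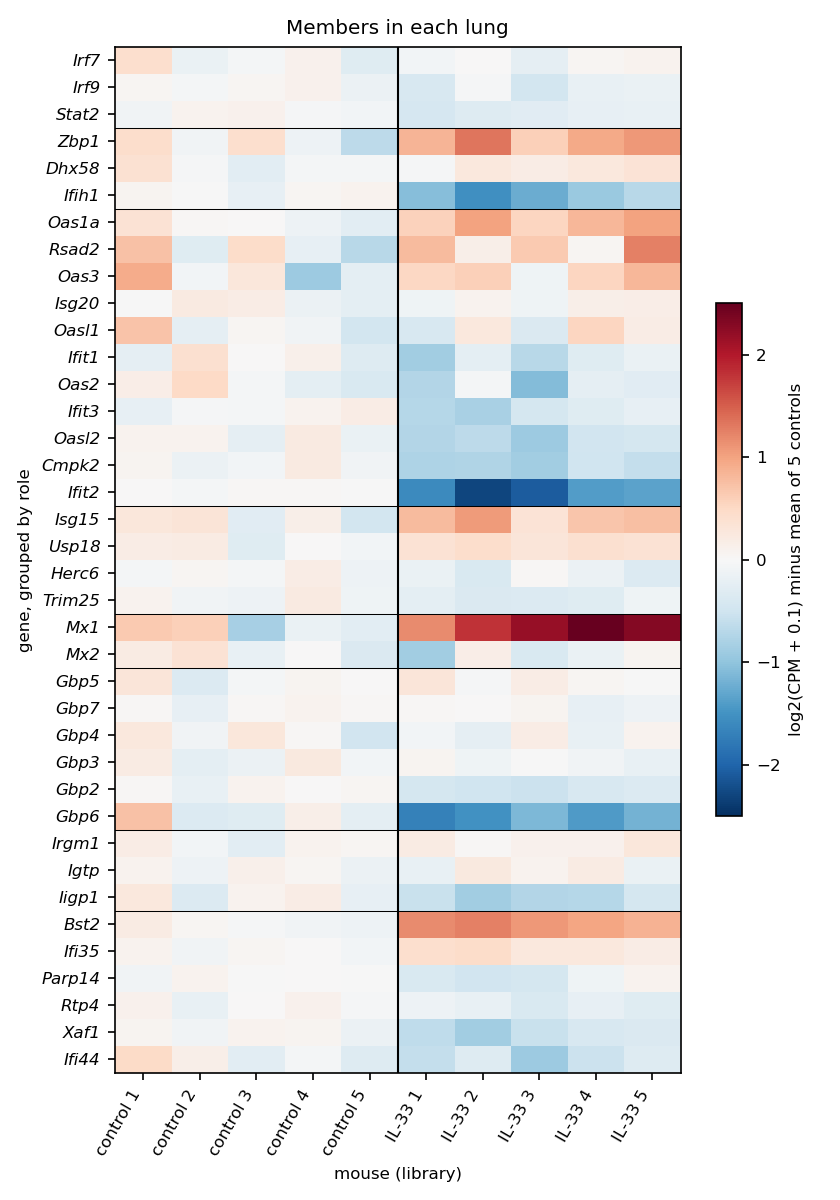
Each of the 38 members (rows, grouped by role) in each of the 10 lungs (columns), coloured by log2(CPM + 0.1) minus the mean of the 5 controls, red above and blue below. Mx1, Bst2, Zbp1, Oas1a and Isg15 (whose sign turns with the length and GC correction) are red and Ifit2, Ifih1 and Gbp6 blue across all 5 IL-33 lungs, and control 1 is redder than the other controls for Rsad2, Oas3, Oasl1 and Gbp6.

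Marker transcripts of many cell types differed between the groups at the same time. Of the endothelial markers 0 of 6 rose and 5 fell (0 and 6 after the correction), with sums of 5225 to 5999.7 CPM in controls and 2084 to 2972 CPM in IL-33 lungs. Of the alveolar type 1 markers 0 of 5 rose and 5 fell (0 and 5 after the correction), with sums of 3899 to 4340.1 CPM in controls and 1827 to 2273 CPM in IL-33 lungs. Of the alveolar type 2 markers 1 of 5 rose and 3 fell (0 and 4 after the correction), with 17933 to 20899 CPM in controls and 15453 to 18632 CPM in IL-33 lungs, and of the pan-epithelial ones 2 of 4 rose and 1 fell (0 and 2 after the correction), with 616 to 737 CPM in controls and 567.6 to 699 CPM in IL-33 lungs.

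Among leukocytes, 4 of 5 rose and 0 fell (3 and 1 after the correction) of the monocyte and recruited macrophage markers, with sums of 81.6 to 116 CPM in controls and 684 to 1007 CPM in IL-33 lungs. Of the eosinophil markers 4 of 5 rose and 1 fell (4 and 1 after the correction). The one that fell, Siglecf, is also on alveolar macrophages and makes up nearly all of the control sum, at 14.4 ± 0.944 CPM in controls and 9.73 ± 1.64 CPM in IL-33 lungs, and the full sums were 13.8 to 15.8 CPM in controls and 59.3 to 74.5 CPM in IL-33 lungs. The other 4 had control means of 0.0175 to 0.435 CPM and IL-33 means of 6.68 to 19.2 CPM. Of the neutrophil markers 4 of 5 rose and 0 fell (4 and 0 after the correction), with sums of 78.9 to 246 CPM in controls and 337 to 552 CPM in IL-33 lungs. Of the resident alveolar macrophage markers 1 of 5 rose and 3 fell (1 and 4 after the correction), and their sums of 243 to 329 CPM in controls and 259 to 334 CPM in IL-33 lungs are carried by Car4, at 241 ± 37.5 and 259 ± 30.0 CPM and not called as fitted.

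Of the B cell markers 4 of 5 rose and 0 fell (2 and 0 after the correction), with sums of 41.0 to 293 CPM in controls and 251 to 411 CPM in IL-33 lungs. Of the plasma cell markers 4 of 6 rose and 1 fell (3 and 1 after the correction), with sums of 444 to 502 CPM in controls and 599.9 to 1099 CPM in IL-33 lungs carried in controls by Xbp1 and Sdc1. Of the T cell markers 3 of 5 rose and 1 fell (3 and 1 after the correction), with sums of 37.3 to 69.2 CPM in controls and 73.2 to 111 CPM in IL-33 lungs. Of the plasmacytoid dendritic cell markers 4 of 6 rose and 0 fell (5 and 0 after the correction), and their sums of 364 to 442 CPM in controls and 420.4 to 517 CPM in IL-33 lungs are carried by Tcf4, at 369 ± 19.9 and 399.6 ± 38.04 CPM and not called as fitted. Natural killer and type 1 lymphocyte markers, of the cells that make interferon-gamma, were called in none of 7 cases by edgeR, with sums of 40.1 to 107 CPM in controls and 42.7 to 70.8 CPM in IL-33 lungs. At an unadjusted p under 0.05, by DESeq2 and by limma-voom the count was 0 as well. After the correction 5 of those 7 were called lower. No marker had 0 reads in every library. The part of these shifts in the values of the interferon-stimulated genes was not tested.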

How the data were processed

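The authors deposited 1 table of raw counts a library (reads per gene, not normalized). Per the submitters' processing notes, FastQC 0.11.6, MultiQC 1.6, STAR 2.5.4b, HTSeq 0.9.1 and the GRCm38 genome were used, and per the labels' protocols RNA was polyA-enriched and libraries keep strand. Neither the annotation release nor the strand setting of counting is stated, so overlapping and antisense genes may share reads.

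Symbols, exon lengths and positions came from GENCODE M21 (GRCm38), and 53274 of 53465 identifiers matched. Rows that name no gene were left out. Multiply aligned records were 15.0% to 22.8% of all, those outside any gene 10.4% to 13.7% and ambiguous ones 0.862% to 0.945%. No library was a repeat of another: within a group, chi-square divided by its degrees of freedom was 5.09 or more for each pair. Replicates are separate libraries per the labels, and p-values measure the spread between them.

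All 10 libraries entered 1 edgeR 4.0.16 fit (R 4.3.3) by group, with filterByExpr, TMM and the quasi-likelihood test, and a call is a Benjamini-Hochberg adjusted p under 0.05 over all tested genes. The SE is that of log2(CPM + 0.1) over the libraries. The fit was also run on simulated counts in which few genes changed. Many genes were called in these data, so that run does not vouch for the calls here. Alternatives were DESeq2 1.42.0, limma-voom (3.58.1), other scalings, no filter, the replicate block, leaving out each library, and offsets that remove each library's spline trend (4 degrees of freedom) on exonic length and GC content. Shared sequence was measured as the share of 75-base stretches of a gene's transcripts that also occur in those of a different gene. Plots used Python 3.11.15 and matplotlib 3.10.9.

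The members, lists and tests were chosen with earlier results of these data known. Per-library values are given for called members with at least a 2-fold change and 1 CPM, the 2 most abundant per kilobase, and Isg15, Irf7, Irf9 and Stat2. Other members given per library were chosen after their values were seen. Pathway genes are named if called, at least 2-fold and at 1 CPM, with a few fixed ones besides. Genes named elsewhere, including the promoters shown beyond Bst2 and Ifih1, were chosen after their values were seen. A gene of the signalling list is not reported here.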

Additional observations from a re-analysis of the deposited data

Results flagged for a closer look

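Gbp7 in control 2, at 66.3 CPM, lay far below the other 4 controls, at 77.8 to 81.4 CPM. It was the only such sample among 76 group and gene combinations screened, where chance gives about 1 in 20. Multiply aligned records, which the comparisons do not use, made up 21.7% ± 1.21 of records in IL-33 libraries and 15.6% ± 0.502 in controls (SD, n = 5, two-sided exact permutation test, p = 0.00794, 0.0119 adjusted over 3 measures), higher in 5 of 5 IL-33 libraries. Records in no gene made up 12.4% ± 0.889 and 10.8% ± 0.28 (same exact test, p = 0.00794, 0.0119 adjusted), also higher in 5 of 5. Reads of near-identical families such as Gbp6 with Gbp10, Oas1a with Oas1g and Ifit3 with Ifit3b can fall among the multiply aligned records, and the part of this in their values was not tested.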

How the results depend on the processing

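The length and GC correction changed the count of higher members by over 1.5 times: 3 members were higher under it in place of 7, while 19 were lower in place of 16. It reversed 6 members, Isg15 (-0.18, -0.17 with the block), Isg20 (-0.38, -0.38 with the block), Oasl1 (-0.22, -0.21 with the block), Gbp4 (0.050, 0.071 with the block), Ifi35 (-0.20, -0.20 with the block), Igtp (-0.45, -0.45 with the block). Of these Isg15 and Ifi35 had been called. Oasl1 also turned, at -0.0015, with no low-count filter. The correction removes the genome-wide trend with length, and whether that trend is technical was not tested. DESeq2, limma-voom and DESeq2 size factors changed no member's call, and plain library size, with or without the 50 most abundant genes, changed only that of Parp14. Leaving out each library in turn gave 20 to 26 members called, 7 to 10 higher, 13 to 17 lower, a median of -0.21 to -0.10 and 40 to 48 pathway genes called (main 48). Of the 15838 to 15947 genes tested in those fits, 10516 to 11089 were called, 5338 to 5531 higher and 5178 to 5558 lower. Members whose sign turned in those fits ranged over -0.14 to 0.058 (Irf7), -0.12 to 0.28 (Oasl1), -0.0087 to 0.16 (Gbp5), -0.0081 to 0.097 (Igtp), -0.17 to 0.0026 (Gbp4) and -0.025 to 0.087 (Isg20), and none was called as fitted. Across all 19 alternatives Mx1, Zbp1 and Bst2 stayed higher and 12 members stayed lower. That count was not made over all tested genes, so it does not set the members apart. The replicate numbers correlated at -0.07 to 0.23 between same-numbered mice, so not every pair exceeded 0.1. Only 1 of 5 controls correlated best with its own number. The labels leave pairing unstated, and the numbers were not used as pairs in the main fit. With the replicate number as a block 24 members were called in place of 23, the addition being Oas2, which was also called with no low-count filter. Of all tested genes 11122 were called with that block in place of 10975. With the block and the correction together, Oas3 (0.65, adjusted p = 0.0496) and Irgm1 (0.18, adjusted p = 0.0382) were called higher as well. Depth limits the interferon genes, at 0 to a few reads, and Gbp6.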

Other observations

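Gene families, some with genes in the lists above, were looked up by symbol after the values were seen, and only some are given here. Of 5 tested Ifitm genes 3 were higher and 1 lower as fitted, and 0 and 4 after the length and GC correction. All 6 annotated Ifit genes were lower in IL-33 lungs, as fitted and after the length and GC correction. Ifit1bl1 went from 4.29 ± 1.07 to 1.45 ± 0.667 CPM (log2 -1.50 ± 0.29, adjusted p = 0.000335) and Ifit1bl2 from 3.61 ± 1.029 to 1.33 ± 0.531 CPM (log2 -1.38 ± 0.34, adjusted p = 0.000773). The HIN family of DNA-binding proteins on chromosome 1 moved mostly the other way, with 7 of 11 higher and 2 lower (4 and 2 after the correction). Mndal rose from 53.0 ± 11.3 to 93.0 ± 7.83 CPM (log2 0.81 ± 0.14), while Ifi205 fell by 1.37 and Ifi208 by 1.32 on the log2 scale.

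Among 7 tested Schlafen genes 3 rose and 2 fell (3 and 4 after the correction). Slfn9 went from 6.198 ± 0.725 to 24.6 ± 3.71 CPM (log2 1.99 ± 0.12, adjusted p = 3.87e-08) and Slfn2, which T cells need for quiescence, from 34.7 ± 13.6 to 91.7 ± 11.4 CPM (log2 1.40 ± 0.25). Apol9b rose from 0.565, 0.985, 0.676, 0.525 and 0.474 CPM to 10.6, 8.39, 8.17, 6.70 and 6.54 CPM (log2 3.64 ± 0.20, adjusted p = 3.23e-08; corrected 3.17), a larger change than that of any of the 38 members. It had 34 reads over the 5 control libraries, and the sequence it shares with other genes was not measured. Of 13 Apol genes 3 were tested, of which 2 rose and 0 fell. Values are mean ± SD of 5 libraries, and the calls of the genes named here were the same under all 19 alternatives.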
